A study of Homo sapiens with 12 samples.

Results

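Genes that make fatty acids and that build, coat and empty lipid droplets were followed in the RNA of 2 liver cancer lines, Huh7 and HepG2, each as parental cells and as cells made resistant to the kinase inhibitor sorafenib. The labels call both lines hepatocellular carcinoma cells. The 39 genes were chosen by symbol as known enzymes, coat proteins and regulators of these pathways, and all 39 are among the 27249 genes with an Ensembl identifier in the deposited tables, which list 98711 genes in all. Each of the 4 groups held 3 samples, and all cells were of WT genotype. Resistant cells had survived a first sorafenib dose of 10 μmol, a drug withdrawal and then repeated rounds of rising dose over 8 months, and parental cells had received no treatment. The labels name a single resistant derivative per line, nothing states that its 3 samples came from separate cultures, and whether sorafenib was present at harvest is not stated. The p-values below therefore measure the spread between these samples, which may be technical.

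Cells build fatty acids from citrate. ATP citrate lyase releases acetyl-CoA in the cytosol, acetyl-CoA carboxylase turns it into malonyl-CoA, and fatty acid synthase joins these units to palmitate with NADPH as the reductant. Palmitate is then elongated and desaturated, esterified to glycerol in steps that end in triglyceride, and stored in droplets that hepatocytes coat mainly with perilipin 2 and empty again with lipases.

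Values are FPKM, the reads of a gene scaled by its length and by the depth of the sample, so that levels of different genes can be set side by side. The reads behind a sample numbered 12290128 to 19285957, with the parental HepG2 samples lowest at 12290128 to 15728850. All 13 hepatocyte markers examined, among them ALB, APOB and HNF4A, averaged at least 1 FPKM in each group, with a summed level of 6748.5 to 10407 FPKM per sample. Of 7 adipocyte markers only PPARG reached that mean in any group, and the list summed to 6.39 to 12.3 FPKM. The leukocyte list (6 genes) summed to 1.98 to 8.84, the endothelial list (5 genes) to 1.30 to 3.77 and the fibroblast or stellate list (7 genes) to 3.58 to 26.2 FPKM, the last carried by ACTA2 in HepG2 cells.

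The promoters of 5 genes are shown because ACLY and SCD rose in both resistant lines, whereas PLIN2, ELOVL5 and PNPLA2 fell in resistant HepG2 cells. FADS3 and LPIN1 also fell in resistant HepG2 cells and are not shown. Each run covers 250 bases before and 50 bases from the RefSeq gene start on GRCh38.p14, 5′ to 3′ on the strand of the gene. Capitals mark CCAAT boxes (CCAAT or its complement ATTGG), the E-box CACGTG and the sterol regulatory element core TCACNCCAC or its complement, searched on both strands.
SCD, chr10:100346983-100347282, plus strand: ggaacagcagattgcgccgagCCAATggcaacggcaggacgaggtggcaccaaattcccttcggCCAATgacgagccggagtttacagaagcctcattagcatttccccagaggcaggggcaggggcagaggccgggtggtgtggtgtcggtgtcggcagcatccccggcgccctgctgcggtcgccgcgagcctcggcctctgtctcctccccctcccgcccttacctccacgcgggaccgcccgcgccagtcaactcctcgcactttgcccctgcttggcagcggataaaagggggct
ACLY, chr17:41918973-41919272, minus strand: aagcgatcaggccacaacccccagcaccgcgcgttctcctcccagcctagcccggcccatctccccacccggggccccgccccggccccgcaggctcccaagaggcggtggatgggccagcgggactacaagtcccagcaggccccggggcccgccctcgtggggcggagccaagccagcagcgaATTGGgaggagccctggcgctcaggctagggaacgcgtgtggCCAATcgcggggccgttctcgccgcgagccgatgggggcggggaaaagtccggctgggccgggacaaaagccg
PLIN2, chr9:19127443-19127742, minus strand: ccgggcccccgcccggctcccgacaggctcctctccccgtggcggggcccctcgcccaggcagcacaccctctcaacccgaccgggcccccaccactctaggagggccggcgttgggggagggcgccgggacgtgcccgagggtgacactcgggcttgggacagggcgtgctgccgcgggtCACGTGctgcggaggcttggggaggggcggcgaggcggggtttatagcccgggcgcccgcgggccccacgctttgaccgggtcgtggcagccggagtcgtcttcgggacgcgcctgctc
ELOVL5, chr6:53348901-53349200, minus strand: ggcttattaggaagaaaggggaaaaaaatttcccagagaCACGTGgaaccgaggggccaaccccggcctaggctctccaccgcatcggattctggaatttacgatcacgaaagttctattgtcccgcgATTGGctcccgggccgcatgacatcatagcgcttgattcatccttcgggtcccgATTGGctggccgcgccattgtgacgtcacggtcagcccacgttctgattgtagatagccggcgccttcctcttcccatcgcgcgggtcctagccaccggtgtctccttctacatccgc
PNPLA2, chr11:818664-818963, plus strand: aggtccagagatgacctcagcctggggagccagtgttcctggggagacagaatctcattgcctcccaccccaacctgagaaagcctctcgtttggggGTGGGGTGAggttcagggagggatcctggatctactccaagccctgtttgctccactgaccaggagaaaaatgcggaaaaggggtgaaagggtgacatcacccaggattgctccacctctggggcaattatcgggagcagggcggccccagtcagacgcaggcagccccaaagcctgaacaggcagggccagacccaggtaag

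Promoter sequences of 33 of the 39 genes were examined. Those of FASN, MGLL, DGAT1, DGAT2, LPIN3 and PNPLA3 were not searched, so nothing is known here of their motifs. A CCAAT box was found in 16 of them (48.5%), against 35.7% of all 27305 promoters of the same length. At least 2 boxes were found in 9 of the 33, those of SCD, ACLY, ELOVL5, FADS3, AGPAT1, AGPAT3, ELOVL3, ELOVL4 and THRSP. The share of all promoters with at least 2 boxes was not computed, so these 9 cannot be set against it. The E-box was present in 3 of the 33 (9.09%, against 7.43% of all promoters), those of ELOVL4, ELOVL5 and PLIN2, and lay at -69 to -64 from the start of PLIN2. Of the 33, only PNPLA2 matched the sterol regulatory element core (3.03%, against 1.15%). The RefSeq start lies 21798 bases inside the gene span of the deposited tables for PLIN2 and 11520 bases inside for ACLY, so the windows of both are those of a RefSeq transcript and not of the outermost annotated start. For SCD, ELOVL5 and PNPLA2 the offset is 12 to 229 bases. A match to these letters is a description of the sequence and not a mapped binding site.

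The most abundant genes of the pathway differed between parental Huh7 and parental HepG2 cells. In parental Huh7 cells the most abundant of the 39 genes were SCD at 281 ± 31.9 FPKM (SD, n = 3) and FASN at 150 ± 32.1, and no other member reached 100. In parental HepG2 cells PLIN2 led at 609 ± 138 FPKM, ahead of ELOVL2, SCD and GPAM at 106 to 146. PLIN2 alone made up 41.9% ± 5.69 of the summed FPKM of the 39 genes in parental HepG2 cells and 3.97% ± 0.108 in parental Huh7 cells. The 39 genes together held 0.601% ± 0.0477 of the FPKM of all Ensembl genes in parental and 0.703% ± 0.0136 in resistant Huh7 cells, and 0.711% ± 0.0371 in parental and 0.547% ± 0.0361 in resistant HepG2 cells. The samples of resistant and parental cells separated in each line, and the share was higher in resistant Huh7 cells and lower in resistant HepG2 cells. PLIN2 went from 41.9% to 16.1% ± 0.623 of the 39-gene sum in HepG2. Without PLIN2, the other 38 genes held 0.412% ± 0.0218 in parental and 0.459% ± 0.0318 in resistant HepG2 cells, with overlap between the groups, and 0.577% ± 0.0458 and 0.669% ± 0.0137 in Huh7, without overlap. These are relative levels from bulk RNA, in which fewer cells of a type and less RNA per cell cannot be told apart.

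**Figure D1:**
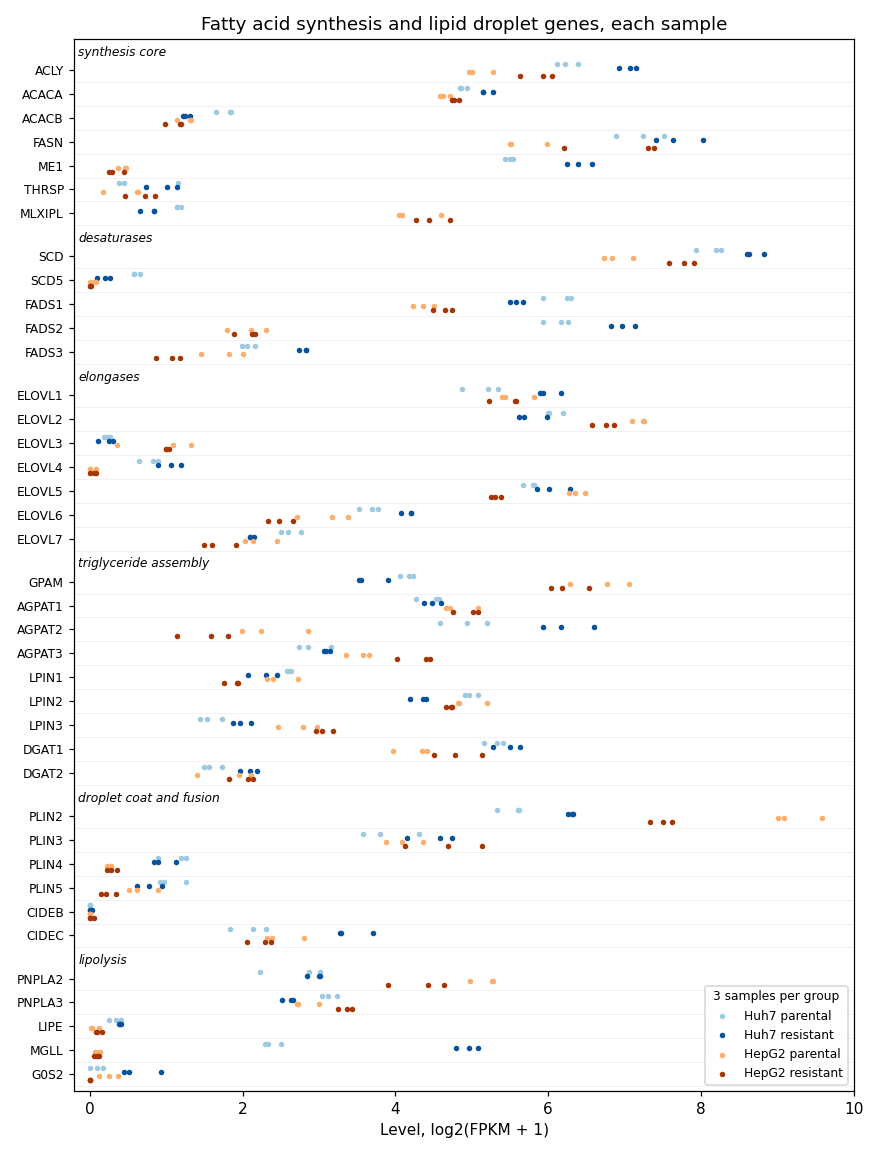
Level of each of the 39 genes in each of the 12 samples as log2(FPKM + 1), grouped by role, with 1 point per sample. PLIN2 sits highest of all genes in parental HepG2 cells, ME1, FADS2 and MGLL are well above HepG2 in both Huh7 groups, and SCD5, CIDEB and LIPE lie near 0 in every group.

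Resistant and parental cells of each line were compared with limma on log2(FPKM + 1) over all genes that reached 1 FPKM in 3 or more of the 6 samples. A gene was called when its adjusted p-value was under 0.05 and its difference exceeded 1 on this log2 scale, and "rose" or "fell" below means an adjusted p-value under 0.05. This scale understates the change of genes with low levels. In Huh7, 32 members were tested and 3 were called, AGPAT2, CIDEC and MGLL, all higher in resistant cells (9.38%, against 22.6% of the 12554 genes tested). By the adjusted p-value alone 15 members rose (32.7% of all genes tested did) and 8 fell (37.4%), and the median difference of the 32 was 0.30, against -0.04 over all genes. In HepG2, 29 members were tested and 3 were called, FASN higher and PLIN2 and ELOVL5 lower (10.3%, against 6.27% of 11762). There 5 members rose (11.6% of all genes) and 5 fell (8.43%), with a median of -0.01 against 0.12 over all genes. The 3 samples of each group did not overlap for 24 of 32 members in Huh7 (75.0%, against 74.5% of all genes) and for 17 of 29 in HepG2 (58.6%, against 40.4%).

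Of the 28 members tested in both lines, ACLY and SCD rose in both (3.49% of the 10688 genes tested in both lines rose in both) and LPIN1 fell in both (2.36%). PLIN2 and FADS3 rose in resistant Huh7 and fell in resistant HepG2 cells, and PNPLA3 did the reverse. In HepG2, 8 of the 10 members with an adjusted p-value under 0.05 lost it in at least 1 fit that left out a sample, ELOVL5 and PLIN2 being the exceptions. Without HepG2 resistant replicate 3 all 8 were lost, SCD among them, without parental replicate 1 ACLY, FASN, FADS3, AGPAT3, LPIN1, PNPLA2 and PNPLA3, and the highest adjusted p-value over these fits was 0.147, that of PNPLA3. FASN and LPIN1 were lost also without parental replicate 2 or resistant replicate 2, FADS3 without parental replicate 2 or resistant replicate 1, PNPLA2 without parental replicate 2, AGPAT3 without resistant replicate 2, and PNPLA3 without parental replicate 3 or resistant replicate 2. In Huh7, 5 of 23 were lost in such fits. LPIN1 and PLIN3 were lost without parental replicate 2 or 3 or resistant replicate 1 or 3, LPIN1 also without parental replicate 1, LPIN3 without parental replicate 2 or 3 or resistant replicate 1, ACACA without parental replicate 2 or resistant replicate 3, and MLXIPL without resistant replicate 3 (highest adjusted p = 0.156, that of LPIN1). The difference between the lines was tested as a line-by-resistance interaction over the 12 samples, where 10 of 33 members passed (30.3%, against 28.8% of 13800 genes). In 9 of them the value was higher in Huh7 (10.6% of all genes) and in 1 it was lower (18.2%). Between the parental lines, 15 of 30 members were called (50%, against 31.9% of 12796 genes), 9 higher in Huh7 (19.4% of all genes) and 6 higher in HepG2 (12.5%); this comparison uses the same parental samples as the others. Median-ratio scaling moved the median of all genes from -0.15 to -0.01 in the interaction and from 0.19 to 0.02 between the parental lines, and each value below is given on the deposited scale.

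**Figure D2:**
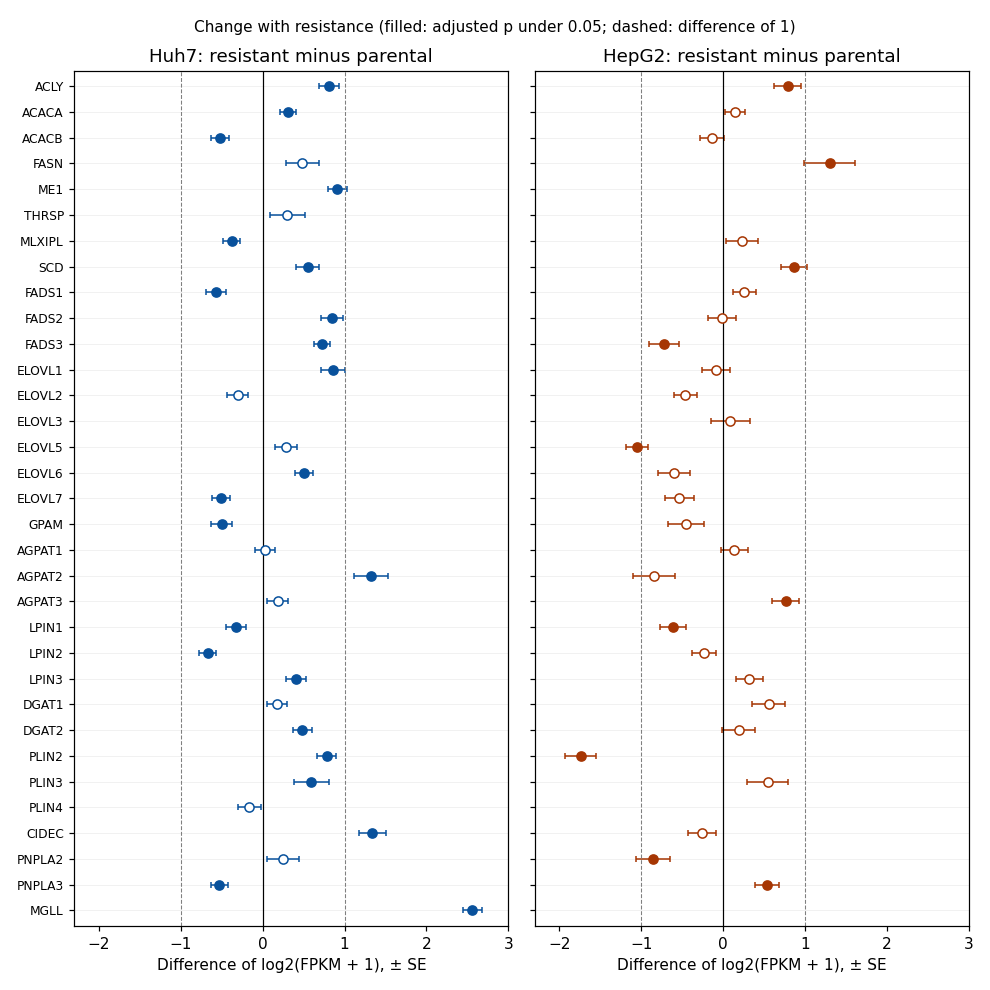
Difference of log2(FPKM + 1), resistant minus parental, with its standard error from limma for each member tested in Huh7 (left) and HepG2 (right); filled points have an adjusted p-value under 0.05, and dashed lines mark a difference of 1. MGLL, CIDEC and AGPAT2 lie beyond 1 in Huh7, and in HepG2 FASN lies above 1 and PLIN2 and ELOVL5 lie below -1.

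Of the 7 genes of the synthesis core, ACLY rose in both lines. ACLY (ENSG00000131473, chromosome 17, 41866908 to 41930542, minus strand) was at 74.9 ± 7.47 FPKM in parental and 132 ± 10.2 in resistant Huh7 cells, a ratio of 1.76 (log2 difference 0.81 ± 0.12 SE, adjusted p = 0.000448). In HepG2 it was at 33.1 ± 4.15 in parental and 58.1 ± 8.59 in resistant cells, a ratio of 1.75 (0.79 ± 0.16, adjusted p = 0.0132). Resistant and parental samples separated in each line, and the difference between the lines was 0.02, with a 95% interval of -0.40 to 0.44.

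FASN (ENSG00000169710, chromosome 17, 82078333 to 82098332, minus strand), which encodes fatty acid synthase, was called in HepG2 only. Its levels were 44.8, 44.2 and 62.5 FPKM in parental and 72.9, 167 and 158 in resistant HepG2 cells. All resistant samples were above all parental ones, but resistant replicate 1 was much closer to the parental samples than the other two were. The ratio of the means was 2.62, with a log2 difference of 1.30 ± 0.31 (adjusted p = 0.0229). The call was lost without resistant replicate 2 (1.09, adjusted p = 0.0575) or 3 (1.13, 0.0731), without parental replicate 1 (1.23, 0.0813) or 2 (1.22, 0.0596), without the filter on low values (adjusted p = 0.0846), and when the GC trend of each library was removed (0.95). In Huh7 FASN stood at 182, 150 and 117 FPKM in parental and 198, 170 and 261 in resistant cells; these groups overlapped, and the difference of 0.48 ± 0.20 did not pass (adjusted p = 0.0608). It was 0.06 with the GC trend removed and 0.42 with limma-voom, where it passed (adjusted p = 0.0112). In the main fit the lines were not shown to differ for FASN (difference -0.82, 95% interval -1.75 to 0.11, adjusted p = 0.121). That difference was -0.88 with the GC trend removed (adjusted p = 0.0110) and -0.91 with limma-voom (adjusted p = 0.0388), both short of a call. Leaving out HepG2 resistant replicate 1 brought it to -1.20 (adjusted p = 0.00791).

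ME1 (ENSG00000065833, chromosome 6, 83210389 to 83431071, minus strand), the cytosolic malic enzyme that supplies NADPH, was abundant in Huh7 and close to absent in HepG2. Its level was 42.2, 44.3 and 45.4 FPKM in parental and 74.9, 94.4 and 82.8 in resistant Huh7 cells. In HepG2 it was 0.294, 0.386 and 0.377 in parental and 0.368, 0.227 and 0.190 in resistant cells, which corresponds to 11 to 21 reads per sample. The Huh7 groups were far apart, with a ratio of 1.91 and a rise of 0.91 ± 0.12 (adjusted p = 0.000210), whereas the HepG2 values were too low to be tested. Parental Huh7 exceeded parental HepG2 cells 125-fold in the ratio of means (5.06 ± 0.12 on the log2 scale, adjusted p = 1.13e-07). ME1 entered this comparison and the interaction test only through Huh7 samples. The p-values of both are therefore not independent of the filter on low values. The difference of the resistance effect between lines, 1.02 ± 0.15 (adjusted p = 0.000208), lies just past the threshold of 1 and was no longer past it when Huh7 resistant replicate 2 (0.93), Huh7 parental replicate 1 (0.99), HepG2 resistant replicate 2 (1.00) or 3 (0.97) or HepG2 parental replicate 2 (1.00) was left out. With the GC trend removed it was 1.89.

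The other genes of the core changed by less than 1 on the log2 scale. ACACA, the main acetyl-CoA carboxylase, rose in Huh7 from 28.5 ± 1.01 to 35.5 ± 1.86 FPKM (0.31 ± 0.10, adjusted p = 0.0202) and was at 23.9 ± 1.13 and 26.6 ± 0.851 in parental and resistant HepG2 cells (adjusted p = 0.426). ACACB, the mitochondrial form, was low throughout and fell in Huh7 from 2.44 ± 0.267 to 1.39 ± 0.0852 FPKM (-0.52, adjusted p = 0.00281; -0.94 with the GC trend removed), a parental-to-resistant ratio of 1.75. MLXIPL, which encodes the glucose-sensing transcription factor ChREBP, was at 18.3 ± 4.30 FPKM in parental HepG2 and 1.24 ± 0.0409 in parental Huh7 cells, and fell further in resistant Huh7 cells to 0.721 ± 0.123 (-0.38, adjusted p = 0.0114; -0.86 with the GC trend removed), a ratio of 1.71. MLXIPL entered the Huh7 test only through the parental samples, so its p-value there is not independent of the filter on low values. THRSP, a lipogenic regulator, averaged 0.409 to 0.967 FPKM in the 4 groups. The summed level of ACLY, ACACA, FASN and SCD was 458 to 599 FPKM in parental and 768 to 815 in resistant Huh7 samples, and 205 to 245 in parental and 339 to 486 in resistant HepG2 samples, with no overlap within a line.

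SCD (ENSG00000099194, chromosome 10, 100347124 to 100364834, plus strand) introduces the first double bond into saturated acyl chains and was the most abundant member in both Huh7 groups and in resistant HepG2 cells. It rose from 281 ± 31.9 to 411 ± 34.9 FPKM in Huh7 (0.55 ± 0.14, adjusted p = 0.00663) and from 119 ± 16.6 to 216 ± 24.6 in HepG2 (0.86 ± 0.16, adjusted p = 0.00891). In both lines the resistant samples lay above the parental ones. The effect was not shown to differ between lines (difference -0.31, 95% interval -0.75 to 0.12). Its share of the summed FPKM of the 39 genes went from 8.23% ± 0.460 to 19.5% ± 1.08 in HepG2, where PLIN2 fell, and was 24.8% ± 0.357 and 25.7% ± 2.61 in Huh7.

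FADS1, FADS2 and FADS3 lie side by side on chromosome 11, between 61792980 and 61892051, and moved apart. FADS2 and FADS1 desaturate polyunsaturated fatty acids, and FADS3 acts on sphingoid bases. In Huh7, FADS2 rose from 68.9 ± 8.22 to 125 ± 13.8 FPKM (0.85 ± 0.13, adjusted p = 0.000604; 0.31 with the GC trend removed), while FADS1 fell from 71.0 ± 9.42 to 47.2 ± 2.89 (-0.57 ± 0.13, adjusted p = 0.00354; -1.02 with the GC trend removed). The ratio of FADS2 to FADS1 was 0.915 to 1.01 in parental and 2.24 to 3.15 in resistant Huh7 samples, and 0.125 to 0.187 in all HepG2 samples. FADS2 was at 3.24 ± 0.741 FPKM in parental HepG2 cells, 21.3-fold below parental Huh7 (adjusted p = 5.20e-07), and its difference there was -0.01 with a 95% interval of -0.41 to 0.39. Exons of FADS1 and FADS2 on opposite strands share 490 bases, under 5% of the exon length of either gene.

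FADS3 (ENSG00000221968) moved in opposite directions in the 2 lines. Its levels were 3.47, 3.00 and 3.16 FPKM in parental and 6.08, 5.69 and 6.09 in resistant Huh7 cells. In HepG2 they were 3.02, 2.55 and 1.74 in parental and 0.818, 1.27 and 1.10 in resistant cells. Neither pair of groups overlapped: FADS3 rose by 0.73 ± 0.10 in Huh7 (adjusted p = 0.000358) and fell by 0.72 ± 0.18 in HepG2 (adjusted p = 0.0281), and the effects differed by 1.45 ± 0.20 (adjusted p = 0.000145). With the GC trend of each library removed, the Huh7 difference was 0.17 (adjusted p = 0.104) and the difference between lines 1.07. SCD5, a further stearoyl-CoA desaturase, did not exceed 0.584 FPKM in any sample.

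Among the elongases, ELOVL5 gave the only call in HepG2. ELOVL5 (ENSG00000012660, chromosome 6, 53267398 to 53349179, minus strand) and ELOVL2 lengthen polyunsaturated fatty acids. ELOVL5 was at 88.8, 76.1 and 80.8 FPKM in parental and 40.9, 37.1 and 38.6 in resistant HepG2 cells, and at 55.0, 55.3 and 49.96 in parental and 56.9, 76.8 and 63.5 in resistant Huh7 cells. The HepG2 groups were far apart and the Huh7 groups adjacent. ELOVL5 fell by 1.05 ± 0.13 in HepG2 (adjusted p = 0.00170), close to the threshold, and the value was -0.99 without parental replicate 1. In Huh7 the difference of 0.28 ± 0.13 did not pass (adjusted p = 0.0802), but with the GC trend removed it was 0.74 and passed (adjusted p = 0.000416). The lines differed by 1.34 ± 0.17 (adjusted p = 7.98e-05).

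ELOVL6 (ENSG00000170522, chromosome 4, 110045846 to 110199199, minus strand), which extends palmitate to stearate, was at 10.49, 11.96 and 12.6 FPKM in parental and 17.4, 17.5 and 15.8 in resistant Huh7 cells. In HepG2 it was at 8.01, 5.56 and 9.42 in parental and 5.34, 4.04 and 4.57 in resistant cells. The groups separated in both lines, upwards in Huh7 (0.50 ± 0.11, adjusted p = 0.00315; 0.98 with the GC trend removed) and downwards in HepG2, where the difference of -0.60 ± 0.20 did not pass (adjusted p = 0.0641), but did with the GC trend removed (-0.69, adjusted p = 0.00524) and with limma-voom (-0.68, 0.0316). The effects differed by 1.10 ± 0.22 (adjusted p = 0.00171), or by 0.95 without HepG2 parental replicate 3. ELOVL1, which lengthens saturated chains, rose in Huh7 from 34.7 ± 5.84 to 63.3 ± 6.68 FPKM (0.86 ± 0.15, adjusted p = 0.000927; 0.38 with the GC trend removed) and was at 46.2 ± 7.78 and 43.3 ± 5.78 in parental and resistant HepG2 cells; its difference between lines, 0.95, was past 1 (1.00 to 1.05) without Huh7 parental replicate 1, HepG2 resistant replicate 2 or 3, or HepG2 parental replicate 1 or 3. It was 0.60 with the GC trend removed and at most 1.15 over all alternatives.

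ELOVL2 was at 66.3 ± 5.31 and 53.6 ± 7.53 FPKM in parental and resistant Huh7 and at 146 ± 8.79 and 105 ± 10.6 in HepG2 cells. Its resistant samples were all below the parental ones in each line, but neither difference passed (-0.31, adjusted p = 0.0599, and -0.46, adjusted p = 0.0502). ELOVL7 fell in Huh7 from 5.19 ± 0.576 to 3.34 ± 0.0880 FPKM (-0.51, adjusted p = 0.00323), a direction that turned to 0.37 when the GC trend was removed, and was at 3.65 ± 0.723 and 2.21 ± 0.493 in HepG2 (adjusted p = 0.0660). ELOVL4 reached 1.28 FPKM in 1 resistant Huh7 sample and at most 0.0582 in HepG2, and ELOVL3 stayed at or below 1.4999 in every sample.

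RNA levels of some genes of triglyceride assembly differed between the 2 lines. GPAM, which adds the first acyl chain to the glycerol backbone, made up 49.97% ± 8.34 of the summed FPKM of the 9 assembly genes in parental HepG2 and 11.2% ± 1.73 in parental Huh7 cells, and parental HepG2 exceeded parental Huh7 by 2.55 ± 0.20 on the log2 scale (106 ± 28.1 against 16.9 ± 1.04 FPKM, adjusted p = 1.28e-05). GPAM fell in Huh7 to 11.7 ± 1.91 FPKM (-0.50 ± 0.13, adjusted p = 0.00742). This fall was not kept when the GC trend was removed (0.06). In HepG2 the resistant level was 75.9 ± 13.96 FPKM and the groups overlapped (adjusted p = 0.181).

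AGPAT2 (ENSG00000169692, chromosome 9, 136673143 to 136687423, minus strand) adds the second acyl chain and is the gene mutated in a form of congenital lipodystrophy. Its level was 35.8, 29.5 and 23.1 FPKM in parental and 71.2, 59.8 and 96.0 in resistant Huh7 cells. In HepG2 it was 6.27, 3.71 and 2.97 in parental and 1.22, 2.49 and 2.00 in resistant cells. All resistant samples were above the parental ones in Huh7 and below them in HepG2. AGPAT2 rose 2.57-fold in Huh7 (1.33 ± 0.20, adjusted p = 0.000556), and the value was 0.91, short of a call, with the GC trend removed; its GC content, 65.8%, is the highest of the members. In HepG2 the difference of -0.85 ± 0.26 did not pass (adjusted p = 0.0513), but was called without parental replicate 3 (-1.04, adjusted p = 0.0391), with the GC trend removed (-1.22, adjusted p = 0.00980) and with limma-voom (-1.12, adjusted p = 0.0248). The effects differed between the lines by 2.17 ± 0.37 (adjusted p = 0.000535), and by 2.14 with the GC trend removed.

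The other assembly genes changed by less than 1 on the log2 scale. AGPAT3 rose in HepG2 from 10.6 ± 1.21 to 18.8 ± 3.06 FPKM (0.77 ± 0.16, adjusted p = 0.0155) and was at 6.60 ± 1.15 and 7.57 ± 0.254 in parental and resistant Huh7 cells. LPIN1, a phosphatidate phosphatase, fell in both lines, from 5.07 ± 0.118 to 3.86 ± 0.644 FPKM in Huh7 (-0.33, adjusted p = 0.0406) and from 4.64 ± 0.856 to 2.67 ± 0.263 in HepG2 (-0.61, adjusted p = 0.0297). In Huh7 its relative LPIN2 fell from 30.8 ± 1.98 to 19.0 ± 1.55 FPKM (-0.67, adjusted p = 0.000645) and LPIN3 rose from 1.98 ± 0.315 to 2.96 ± 0.331 (0.41, adjusted p = 0.0161), which became -0.14 with the GC trend removed. Of the enzymes of the last step, DGAT2 rose in Huh7 from 2.03 ± 0.257 to 3.24 ± 0.335 FPKM (0.48, adjusted p = 0.00584; 0.03 with the GC trend removed), and DGAT1 was at 38.4 ± 3.36 and 43.6 ± 5.29 in Huh7 and at 18.1 ± 3.07 and 27.4 ± 6.32 in HepG2, without passing in either line. AGPAT1 averaged 21.1 to 30.1 FPKM in the 4 groups and did not pass, and 29.9% of its exon length lies opposite PPT2-EGFL8.

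Of the 4 droplet coat and fusion genes compared between the lines, PLIN2 differed most. PLIN2 (ENSG00000147872, chromosome 9, 19108375 to 19149290, minus strand) encodes perilipin 2, the main droplet coat protein of liver cells. Its level was 543, 768 and 516 FPKM in parental and 160, 196 and 180 in resistant HepG2 cells, and 48.0, 47.7 and 39.2 in parental and 79.3, 75.4 and 78.2 in resistant Huh7 cells. Each pair of groups was widely separated, downwards in HepG2 and upwards in Huh7. PLIN2 fell by 1.74 ± 0.19 in HepG2 (adjusted p = 0.000957), where parental exceeded resistant cells 3.40-fold, and rose by 0.78 ± 0.11 in Huh7 (adjusted p = 0.000408). The effects differed by 2.52 ± 0.22 (adjusted p = 6.98e-06). All resistant HepG2 samples still lay above all Huh7 samples. With the GC trend removed the values were -1.80 and 0.74, and no alternative changed the HepG2 call.

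CIDEC (ENSG00000187288, chromosome 3, 9866711 to 9880254, minus strand) promotes the fusion of droplets. It was at 3.94, 3.39 and 2.57 FPKM in parental and 12.1, 8.80 and 8.71 in resistant Huh7 cells, and at 4.23, 5.96 and 3.99 in parental and 3.16, 3.92 and 4.19 in resistant HepG2 cells. The Huh7 groups did not overlap and the HepG2 groups did. CIDEC rose 2.99-fold in Huh7 (1.34 ± 0.17, adjusted p = 0.000189; 0.82, short of a call, with the GC trend removed), and in HepG2 the difference was -0.26 ± 0.18 (adjusted p = 0.323). The effects differed by 1.59 ± 0.25 (adjusted p = 0.000324).

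PLIN3, a ubiquitous coat protein, rose in Huh7 from 14.2 ± 4.10 to 21.8 ± 4.60 FPKM (0.60 ± 0.21, adjusted p = 0.0341), although the groups overlapped and the value was 0.04 with the GC trend removed, and was at 16.4 ± 3.02 and 25.2 ± 8.89 in HepG2. An antisense gene covers 17.8% of its exon length. PLIN2 accounted for 97.1% ± 0.976 of the summed FPKM of PLIN2 to PLIN5 in parental and 87.7% ± 2.76 in resistant HepG2 cells, and for 73.5% ± 3.83 and 76.9% ± 3.37 in parental and resistant Huh7 cells. PLIN4 and PLIN5, which are typical of fat and oxidative tissues, did not exceed 1.40 FPKM in any sample. CIDEB was listed at 0 in 10 of the 12 samples and had at most 2 reads; 61.1% of its exon length overlaps NOP9 on the opposite strand, and whether the counting used strand is not stated.

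**Figure D3:**
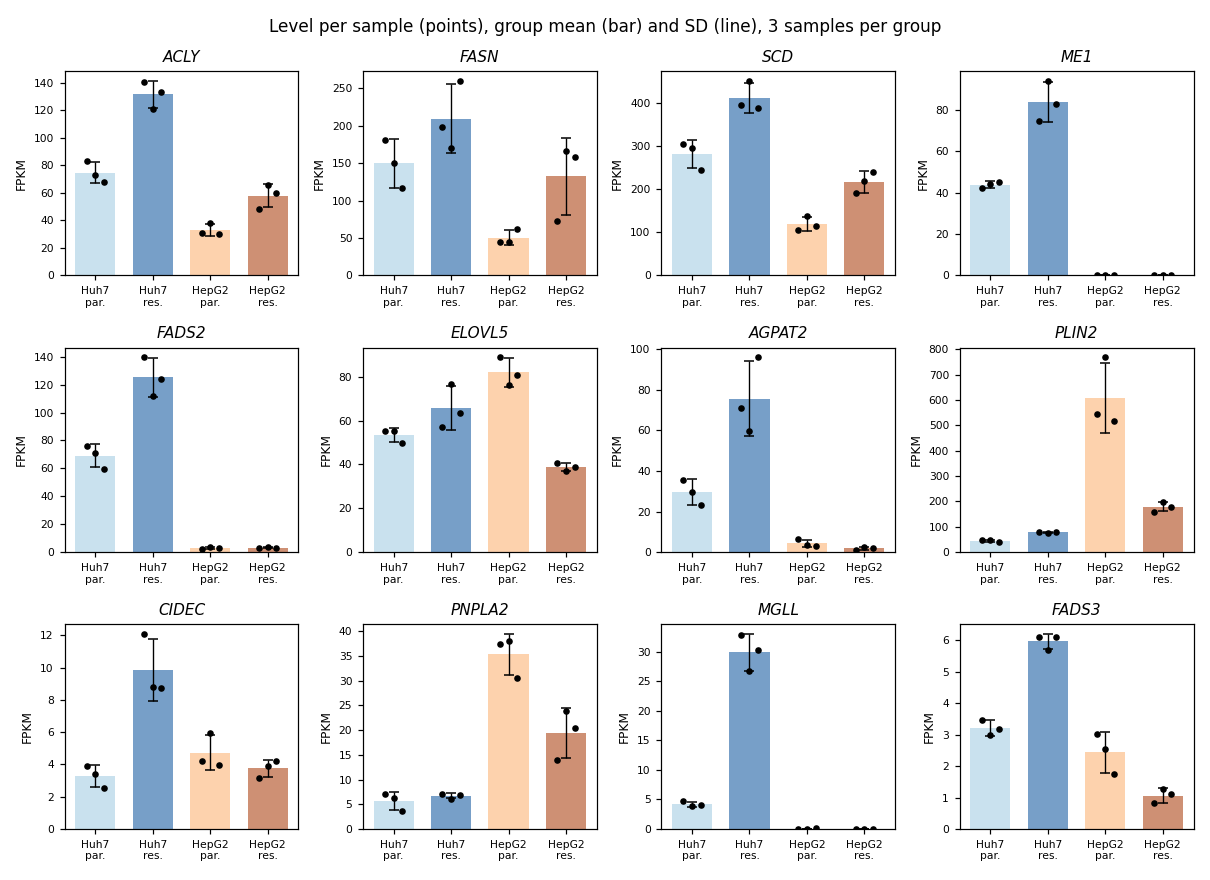
FPKM of 12 members in each group of 3 samples; points are samples, bars are group means from 0 and lines are the SD. PLIN2, ELOVL5 and PNPLA2 stand lower in resistant than in parental HepG2 cells, MGLL and AGPAT2 stand higher in resistant than in parental Huh7 cells, and ACLY and SCD stand higher in the resistant group of both lines.

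MGLL showed the largest change on the log2(FPKM + 1) scale of all members tested within a line. MGLL (ENSG00000074416, chromosome 3, 127689062 to 127823250, minus strand) encodes monoacylglycerol lipase, which releases the last fatty acid from glycerol. Its level was 4.69, 3.91 and 4.04 FPKM in parental and 32.7, 26.6 and 30.2 in resistant Huh7 cells, and between 0.0409 and 0.0944 in the 6 HepG2 samples. The Huh7 groups were separated by a ratio of means of 7.08, while HepG2 levels were too low to be tested within that line. MGLL rose by 2.56 ± 0.12 in Huh7 (adjusted p = 4.45e-06), with a range of 2.50 to 2.64 over the fits that leave out 1 sample and 2.07 with the GC trend removed. Parental Huh7 cells were above parental HepG2 cells 62.3-fold in the ratio of means, or by 2.29 ± 0.11 on the log2(FPKM + 1) scale (adjusted p = 1.17e-06; 5.98 with limma-voom), and the difference of the effects between lines was 2.57 ± 0.14 (adjusted p = 3.91e-07). MGLL entered both comparisons between the lines only through Huh7 samples, so their p-values are not independent of the filter on low values. MGLL is the only member whose position in the tables differs from GENCODE release 29.

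PNPLA2 (ENSG00000177666, chromosome 11, 818902 to 825573, plus strand) encodes adipose triglyceride lipase, which starts the breakdown of stored triglyceride. It was at 37.4, 37.9 and 30.6 FPKM in parental and 13.9, 23.9 and 20.5 in resistant HepG2 cells, and at 7.06, 6.30 and 3.69 in parental and 7.06, 6.15 and 6.98 in resistant Huh7 cells. The HepG2 groups were apart and the Huh7 groups overlapped. PNPLA2 fell in HepG2 by 0.86 ± 0.20 (adjusted p = 0.0229), past the call threshold without resistant replicate 2 (-1.01) or with the GC trend removed (-1.19), and was 0.25 ± 0.19 in Huh7 (adjusted p = 0.283; -0.19 with the GC trend removed). The effects differed by 1.10 ± 0.31 (adjusted p = 0.0101), short of a call without Huh7 parental replicate 3 (0.86) or HepG2 resistant replicate 1 (0.89). The ratio of PNPLA2 to PLIN2 was 0.0494 to 0.0689 in parental and 0.0869 to 0.122 in resistant HepG2 samples with no overlap. In Huh7 this ratio went the other way, from 0.0940 to 0.147 in parental to 0.0816 to 0.0892 in resistant samples, also with no overlap.

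PNPLA3 (ENSG00000100344, chromosome 22, 43923739 to 43964488, plus strand), whose product sits on droplets and is known from a common risk allele for fatty liver, fell in Huh7 and rose in HepG2, where PNPLA2 fell. It was at 8.41, 7.20 and 7.72 FPKM in parental and 5.19, 5.29 and 4.74 in resistant Huh7 cells, and at 5.61, 6.999 and 5.53 in parental and 8.50, 9.82 and 9.31 in resistant HepG2 cells. No groups overlapped. PNPLA3 fell by 0.53 ± 0.11 in Huh7 (adjusted p = 0.00212) and rose by 0.54 ± 0.14 in HepG2 (adjusted p = 0.0332), and the effects differed by -1.07 ± 0.15 (adjusted p = 0.000192), which was -0.97 with upper-quartile and -0.89 with median-ratio scaling. LIPE, the hormone-sensitive lipase of fat tissue, did not exceed 0.331 FPKM. G0S2, an inhibitor of PNPLA2, had 6 to 15 reads in resistant and 0 to 2 in parental Huh7 samples, and 0 in resistant and 1 to 4 in parental HepG2 samples; neither gene was tested.

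Differences in Huh7 moved with the GC content of the genes. Over 12545 tested genes, the rank correlation of the Huh7 difference with GC content was 0.63, against 0.03 in HepG2, a description across genes, which are not independent replicates. When a smooth GC trend was taken out of each library, MGLL stayed called (2.07), AGPAT2 (0.91) and CIDEC (0.82) kept an adjusted p-value under 0.05 without reaching 1, and ME1 (1.71), FADS1 (-1.02) and PNPLA3 (-1.01) passed the threshold. ACLY (0.42), SCD (0.59) and PLIN2 (0.74) remained higher in resistant Huh7 cells.

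**Figure D4:**
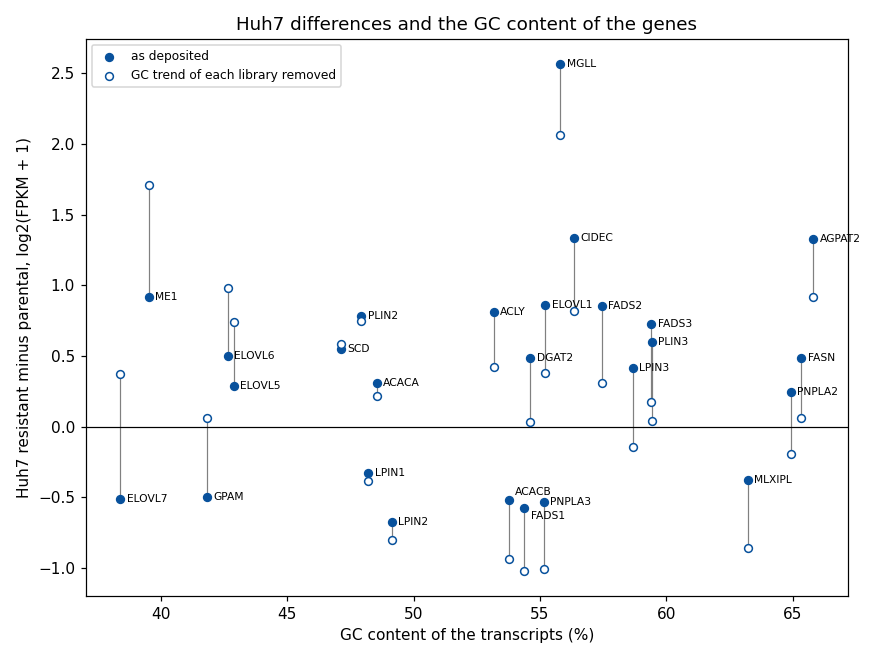
Huh7 difference in log2(FPKM + 1), resistant minus parental, against the GC content of the transcripts in percent, as deposited (filled) and with the GC trend of each library removed (open), for the members carried through this alternative. GC-poor genes such as ME1 and ELOVL7 moved up and GC-rich genes such as AGPAT2, CIDEC and LPIN3 moved down, while SCD and PLIN2 near 47 to 48% stayed in place.

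Around the 39 genes, 111 further genes of the pathway were counted in 6 lists, and 110 of them are in the tables (SLC25A1 was not analysed here). In Huh7, 14 of 87 tested genes were called higher (8.59% of all genes were) and 4 lower (14%), and in HepG2 1 of 91 was called higher (3.29% of all genes) and 11 lower (2.98%). With the GC trend removed the Huh7 counts were 10 higher and 1 lower, where 706 of all 12554 genes were called higher and 731 lower. Of the 18 genes called in Huh7, TKT, PDHA1, PGD, MID1IP1, FABP5, CYB5B and CBR4 were called there too, and the other 11 were not. The median differences were 0.41 in Huh7 and 0.06 in HepG2.

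The list of carbon and NADPH supply held 5 called genes of 14 in Huh7, all higher (35.7%, against 8.59% of all genes called higher), and none of 15 in HepG2 (6.27% of all genes were called). In HepG2 limma gave 5 genes of the list with an unadjusted p-value under 0.05. It gave 2 with an adjusted one (11.6% of all genes rose and 8.43% fell). With limma-voom 1 was called (683 higher and 493 lower of all 11760 genes). TKT, the transketolase of the pentose phosphate pathway, was at 10.2 ± 1.78 FPKM in parental and 67.1 ± 9.24 in resistant Huh7 cells (2.61, adjusted p = 1.02e-05). PGD, which makes NADPH in the same pathway, went from 19.3 ± 3.15 to 55.5 ± 4.02 (1.49, adjusted p = 4.88e-05). PDHA1, a subunit of pyruvate dehydrogenase, went from 4.22 ± 0.626 to 12.9 ± 0.839 (1.42, adjusted p = 4.21e-05). In HepG2 the means of TKT were 54.5 and 49.1, of PGD 24.0 and 25.5 and of PDHA1 3.31 and 4.17 FPKM in parental and resistant cells.

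Genes of fatty acid uptake and activation moved the other way in HepG2, where 4 of 12 were called, all lower and all long-chain acyl-CoA synthetases (33.3%, against 2.98% of all genes called lower). ACSL5 fell by 3.07, from 107, 103 and 75.0 FPKM in parental to 9.87, 11.3 and 9.92 in resistant cells (adjusted p = 6.34e-05). ACSL3, which also serves the growth of new droplets, fell by 1.88 from 99.97 ± 13.9 to 26.4 ± 4.30 FPKM (adjusted p = 0.000492), and ACSL1 by 1.36 from 10.3 ± 0.893 to 3.39 ± 0.214 (adjusted p = 0.000735). ACSL4 fell by 1.05 (adjusted p = 0.0148) and was not called without HepG2 resistant replicate 2 or 3 or parental replicate 1. ACSL3 and ACSL4 also fell in Huh7 without a call (-0.86 and -0.90, adjusted p = 0.000649 and 0.000682). With the GC trend removed these Huh7 values were -0.13 and -0.07. ACSL5 rose in Huh7 (0.85, adjusted p = 0.000536), and ACSL1 did not pass there (-0.18, adjusted p = 0.18). In Huh7, 2 of 12 were called (16.7%, against 22.6% of all genes), both higher: SLC27A3, a fatty acid transport protein (1.05, adjusted p = 0.000103; 0.51 with the GC trend removed), and FABP5, a fatty acid binding protein that went from 11.6 ± 1.30 to 24.5 ± 1.70 FPKM (1.01, adjusted p = 0.000126). FABP5 was not called without Huh7 resistant replicate 2 or parental replicate 1 or 2 (lowest value 0.95). SLC27A3 entered the Huh7 test only through the resistant samples, where it was high. Its p-value is therefore not independent of the filter on low values.

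Among the regulators of lipogenesis, 4 of 20 were called in Huh7 (20%, against 22.6% of all genes) and 2 of 20 in HepG2 (10%, against 6.27%), shares near those of all genes. MID1IP1, a partner of THRSP that activates acetyl-CoA carboxylase, was called in both lines in opposite directions. Its level was 12.7, 11.4 and 7.09 FPKM in parental and 32.7, 33.7 and 35.4 in resistant Huh7 cells (1.65, adjusted p = 0.000129; 1.11 with the GC trend removed). In HepG2 it was 9.99, 12.6 and 10.9 in parental and 2.48, 3.85 and 3.45 in resistant cells (-1.52, adjusted p = 0.00112). PRKAA2, a catalytic subunit of AMPK, fell in Huh7 from 7.04 ± 1.03 to 2.28 ± 0.293 FPKM (-1.29, adjusted p = 8.98e-05; -0.19 with the GC trend removed) and in HepG2 from 12.1 to 6.86 (-0.74, adjusted p = 0.0198). INSIG2, which retains SREBP precursors in the endoplasmic reticulum, fell in Huh7 from 9.94 ± 1.15 to 4.32 ± 0.554 (-1.04, adjusted p = 0.000168). It was not called without Huh7 resistant replicate 2 or parental replicate 3 (smallest change -0.96), and was -0.08 with the GC trend removed (adjusted p = 0.556). PPARGC1A, a coactivator of mitochondrial and gluconeogenic genes, fell in HepG2 from 11.7 ± 3.14 to 5.01 ± 1.16 FPKM (-1.08, adjusted p = 0.0111), short of a call without HepG2 resistant replicate 2 or parental replicate 1 (-0.88 at the smallest). In Huh7 it was too low to be tested, at 0.829 in parental and 0.0948 in resistant cells on average, with no overlap.

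In the remaining lists, calls in Huh7 made up 21.4% of the partners of elongation and desaturation, 10% of the other glycerolipid enzymes and 16.7% of the other droplet and lipolysis genes (22.6% of all genes). In HepG2 the shares were 0%, 23.1% (3 of 13) and 22.2% (4 of 18), against 6.27% of all genes. Of the partners of elongation and desaturation, CYB5R1 and CYB5B of the cytochrome b5 electron chain rose in Huh7 (1.13 and 1.08, adjusted p = 9.79e-05 and 0.000113). With the GC trend removed they were 0.84 and 1.64, and CYB5B was 0.98 without Huh7 resistant replicate 2. CBR4 of mitochondrial fatty acid synthesis fell in Huh7 (-1.78, adjusted p = 3.78e-05) and was -1.10 with the GC trend removed. No call was made among the 14 partners in HepG2. There limma gave 8 of them with an unadjusted p-value under 0.05. It gave 2 with an adjusted one (11.6% of all genes rose and 8.43% fell). With limma-voom 0 were called (683 higher and 493 lower of all 11760 genes). Of the other glycerolipid enzymes, the acyltransferase MOGAT3 rose in Huh7 (9.18 ± 0.844 to 21.1 ± 1.51 FPKM, 1.12, adjusted p = 7.34e-05; 0.59 with the GC trend removed) and fell in HepG2 (40.2 ± 9.31 to 18.2 ± 1.36, -1.08, adjusted p = 0.00551; -0.90 without HepG2 parental replicate 2). Glycerol kinase, GK, fell in HepG2 from 98.0 ± 21.0 to 40.6 ± 8.95 FPKM (-1.25, adjusted p = 0.00577), and GPAT3, a further enzyme of the first acylation step, from 2.23 ± 0.201 to 0.336 ± 0.0147 (-1.27, adjusted p = 0.000957). Of the other droplet and lipolysis genes, AUP1, a droplet-bound ubiquitin ligase partner (1.28, adjusted p = 0.000140; 0.73 with the GC trend removed), and the retinal reductase DHRS3 (1.18, adjusted p = 0.000150; 0.66) rose in Huh7 and the phospholipase PNPLA8 fell (-1.52, adjusted p = 8.86e-05; -0.63). In HepG2 DHRS3 was called lower, from 54.5 to 24.1 FPKM (-1.12, adjusted p = 0.00582), and was -0.94 without parental replicate 2. METTL7B, a droplet-associated methyltransferase, rose in HepG2 from 9.69 ± 0.733 to 25.2 ± 2.48 FPKM (1.29, adjusted p = 0.000953). PNPLA4 fell in HepG2 from 1.53, 2.32 and 1.92 to 0.0343, 0 and 0.0169 FPKM (-1.51, adjusted p = 0.000837). PNPLA4 and GPAT3 entered the HepG2 test only through the parental samples, where they were high. Their p-values are therefore not independent of the filter on low values.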

How the data were processed

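RNA of 12 samples (3 in each of 4 groups) was measured by sequencing, and groups and replicate numbers were taken from the sample labels. The deposited tables give a decimal value per gene without a stated unit. Since value times exon length falls on whole multiples of 1 step per sample in 6896 single-exon genes, the values were read as FPKM that the authors had computed, and 96.4% of values up to 2000 reads came within 0.05 of a whole read. Whether fragments or single reads were counted could not be read from them. The submitters' processing notes name bcl2fastq and GRCh38, and the aligner and counter are not given in the sources used here. The labels and the paper's methods name different RNA extraction kits.

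Reads were calculated back and tables joined in Python 3.11.15 (pandas 2.3.3, numpy 2.4.6). Differences were fitted with limma 3.58.1 in R 4.3.3, two-sided, with a variance trend, on log2(FPKM + 1) over all Ensembl genes that reached 1 FPKM in 3 or more samples, and p-values were adjusted by Benjamini-Hochberg over all genes tested. The 71462 NONCODE genes were left out. Called genes had an adjusted p-value under 0.05 and a difference beyond 1. Exon lengths and GC content came from GENCODE release 29, and promoter sequences from RefSeq. On simulated data with 200 changed genes per line, all genes changed by 2 on the log2 scale were recovered, and of those changed by 1.5, 96% in Huh7 and 99% in HepG2. The changed genes were drawn above a minimum parental level. Their spread was fixed in advance, not taken from these samples, and no GC trend was added. These shares need not hold for the real samples, and changes under 1.5 were not simulated. Alternatives were another pseudocount (0.1), no filter, scaling by the upper quartile or by median ratios, limma-voom on the recovered reads, taking out each library's GC trend (lowess, span 0.3), a replicate block, limma without the trend, all 12 samples in 1 fit, and leaving out each sample. Members called in a line or between lines are given per sample, and at most 3 called genes are named per list and line, by the size of the difference. The members and lists were chosen with earlier results of these data known. Reads carry no molecular identifiers, so read numbers cover counting error only.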

Additional observations from a re-analysis of the deposited data

Results flagged for a closer look

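For 10 members the effect of resistance differed between the lines in limma's interaction test, as a difference of log2 changes, Huh7 minus HepG2. It was 2.57 for MGLL, 2.52 for PLIN2, 2.17 for AGPAT2, 1.59 for CIDEC, 1.45 for FADS3, 1.34 for ELOVL5, 1.10 for PNPLA2, 1.10 for ELOVL6, 1.02 for ME1 and -1.07 for PNPLA3. MGLL and ME1 were below 0.4 FPKM in every HepG2 sample, so their values rest almost wholly on the Huh7 change. Groups of 3 samples were too small for a check of single samples that stand apart.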

How the results depend on the processing

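Of the counts of called members, Huh7 gave 3 to 4 over the alternatives (3 when leaving out each sample), the interaction 10 to 12 (9 to 12), the parental lines 13 to 15 (12 to 15), and HepG2 2 to 5 (1 to 4). HepG2 gave 5 with limma-voom, where AGPAT2 and FADS3 were also called lower, and 1 without HepG2 parental replicate 1, where FASN and ELOVL5 dropped out. Calls in the pathway lists numbered 18 in Huh7 (15 to 20 when leaving out each sample), 11 with the GC trend removed, with or without the replicate block, and 26 with limma-voom, and 12 in HepG2 (9 to 14). With the GC trend removed, with or without the replicate block, 5 values changed sign: ELOVL7 (0.37), GPAM (0.063), LPIN3 (-0.14) and PNPLA2 (-0.19) in Huh7, and ELOVL7 between the parental lines (-0.27). Over all genes, calls in HepG2 were 387 higher and 350 lower, against 290 and 429 with median-ratio scaling, 309 and 406 with upper-quartile scaling and 683 and 493 with limma-voom; in Huh7 they were 1079 and 1759, against 706 and 731 with the GC trend removed and 1434 and 2844 with limma-voom, and in the interaction 1459 and 2517, against 1912 and 1982 with median-ratio scaling. Between the parental lines they were 2482 and 1599, against 2037 and 2016 with median-ratio scaling. The causes of these shifts were not tested.

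Replicate numbers are shared between the groups, but same-numbered samples did not deviate together in every pair. Their correlations were 0.08, 0.06 and -0.23 in Huh7 and 0.25, 0.44 and -0.01 in HepG2. Differently numbered samples gave -0.34 to 0.28 in Huh7 and -0.42 to 0.21 in HepG2. These few values cannot decide whether same-numbered samples were handled together, and no pairing was assumed. With the replicate number as a block, the counts of called members were 3 in Huh7, 3 in HepG2, 10 in the interaction and 15 between the parental lines, and no call of a member listed above was gained or lost. The filter was on FPKM and not on reads, so members that did not reach 1 FPKM in 3 samples did not enter the tests. Among them CIDEB had at most 2 reads per sample. SCD5 had 6 to 16 in resistant and 34 to 45 in parental Huh7 samples. PLIN5 had 9 to 22 in resistant and 32 to 54 in parental HepG2 samples. THRSP, with 6 to 27 reads per Huh7 sample, was tested in that line.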

Other observations

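INSIG1, which holds back the processing of SREBP precursors, was far higher in Huh7 than in HepG2 cells. Its level was 58.3, 65.6 and 49.5 FPKM in parental and 78.1, 92.4 and 81.9 in resistant Huh7 cells, and 0.584, 0.424 and 0.383 in parental and 0.340, 0.510 and 0.223 in resistant HepG2 cells. SREBF1, which encodes the SREBP form that drives lipogenic genes, was at 23.0 ± 3.35 and 29.9 ± 5.60 FPKM in parental and resistant Huh7 and at 12.1 ± 4.58 and 18.0 ± 4.64 in HepG2 cells. Its groups overlapped in both lines, and limma passed neither difference (adjusted p = 0.0778 in Huh7 and 0.181 in HepG2). SREBF2, the form that drives cholesterol synthesis, was at 24.9 ± 3.80 and 37.4 ± 3.86 in Huh7 and at 25.98 ± 4.74 and 18.9 ± 3.25 in HepG2 cells. Its difference passed in Huh7 (0.57, adjusted p = 0.00517 in limma). In HepG2 the SREBF2 groups overlapped and the difference did not pass (-0.43, adjusted p = 0.134). These genes were singled out after their values were seen.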
